A study of Mus musculus with 8 samples.

Results

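Annexins and their S100 partners are described here in the livers of mice without Amacr. Of 10 listed genes, Anxa1, Anxa2, Anxa3, Anxa5, Anxa6, S100a6, S100a8, S100a9, S100a10 and S100a11, the first 9 had a row in the deposited table of 16492 probe sets tested, and S100a11 was not analysed here. Each gene was read from the 1 probe set that carries its Entrez gene number. The genes were chosen by name, as annexins and S100 partners, but with the log2 values of these 8 arrays known. Their genotype differences and their spread between arrays are therefore a description, without a test.

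The 4 Amacr-/- livers and the 4 wild-type livers came from male C57BL/6 mice aged 3 to 3.5 months. Labels call the samples of each genotype biological replicates. They do not say whether the animals were littermates. Amacr, a racemase that readies the side chain of bile acid intermediates for shortening in the peroxisome, is the missing gene. Expression was measured in total RNA of whole liver on 1-colour arrays, as log2 signal.

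Annexins bind acidic membrane phospholipids when calcium is present, and take part in membrane traffic, membrane repair and the link between membrane and actin. S100 proteins are small calcium-binding proteins that dock onto other proteins, annexins among them. The best known pair is annexin A2 with S100A10, which forms a complex at the cell surface and under the plasma membrane, where S100A10 protein is protected from breakdown by annexin A2. S100A8 and S100A9 form calprotectin, an abundant protein of neutrophils and monocytes that is released in inflammation.

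The labels went with the targeted gene. Amacr averaged 5.40 ± 0.13 in Amacr-/- livers and 11.96 ± 0.18 in wild-type livers (SD, n = 4 each), a log2 difference of -6.55 (limma adjusted p = 4.91e-09). Array medians lay between 6.62 and 6.66. Knockout replicate 2 stood apart, with an array quality weight of 0.3 against 0.935 to 1.75 for the other arrays, and values without it are given below where they bear on a result. All 8 measured hepatocyte markers, among them Alb and Ttr, differed by -0.18 to 0.00 between genotypes, and 0 of the 8 passed the limma threshold or an unadjusted p under 0.05. Their summed signal on the linear scale was lower in the knockout, at 152852 to 156819 against 158155 to 160543 in wild type. The cause was not tested.

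S100a10 was the member with the largest difference. Its signal was 11.84, 12.26, 11.15 and 11.61 in Amacr-/- replicates 1 to 4, against 10.66, 10.65, 10.73 and 10.77 in wild-type replicates 1 to 4. Every knockout array lay above every wild-type array, and the wild-type arrays were close together while the knockout arrays were not. The means were 11.71 ± 0.46 in knockout livers and 10.70 ± 0.06 in wild-type livers (SD, n = 4 each). This is a log2 difference of 1.01 (SE 0.20), or 2.02-fold. Without knockout replicate 2 the difference was 0.83. S100a10 was the only 1 of the 9 members whose genotypes did not overlap, beside 6.67% of all probe sets, or 3.42% counting only those higher in the knockout.

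Anxa2, the binding partner of S100A10, was raised in some knockout livers only. It read 8.58, 9.79, 8.18 and 9.24 in Amacr-/- replicates 1 to 4, against 8.40, 8.13, 8.36 and 8.55 in wild-type replicates 1 to 4. Knockout replicates 2 and 4 were far above the wild-type range, replicate 1 was just above it, and replicate 3 lay within it. Anxa2 averaged 8.95 ± 0.71 in knockout and 8.36 ± 0.17 in wild type (SD, n = 4 each). The log2 difference of 0.59 (SE 0.30) fell to 0.31 without knockout replicate 2.

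Set side by side, the 2 genes of the complex shared their highest and lowest knockout array, replicates 2 and 3. This was not particular to the pair. It held for 7 of the 9 members, the pair included, and for 11.8% of all probe sets. S100a10 lay 1.14, 1.56, 0.45 and 0.91 above its wild-type mean in knockout replicates 1 to 4. For Anxa2 the same deviations were 0.22, 1.43, -0.18 and 0.88. They were alike in replicates 2 and 4, while in replicates 1 and 3 the deviation of S100a10 was the larger.

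The region upstream of Anxa2 is shown because the gene had the widest spread of all members between knockout arrays. The sequence covers 250 bases before to 50 after the RefSeq start of the gene, on the plus strand of GRCm38.p6 at chr9:69453433-69453732. Capitals mark matches to TGANTCA, the AP-1 motif searched on both strands, and to TATAAA, the TATA box searched on the gene's strand, and these motifs do not overlap here.
Anxa2: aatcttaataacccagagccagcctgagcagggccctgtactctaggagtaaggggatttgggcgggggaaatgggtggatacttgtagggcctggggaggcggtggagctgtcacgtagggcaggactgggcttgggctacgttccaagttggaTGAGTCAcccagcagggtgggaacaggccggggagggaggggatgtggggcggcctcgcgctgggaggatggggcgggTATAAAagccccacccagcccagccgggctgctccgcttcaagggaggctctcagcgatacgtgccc

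RefSeq gave such a window for 6 of the 9 members, Anxa1, Anxa2, Anxa5, S100a6, S100a8 and S100a9. An AP-1 match was present in 1 of the 6, that of Anxa2, where it begins 95 bases before the start, against 7.81% of all 32851 windows. A TATA box match was present in 4 of the 6, Anxa1, Anxa2, S100a8 and S100a9, against 8.32% of all windows. Such matches are letters in a window and do not show binding.

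The other annexins of the list differed little in their means and much between knockout arrays. Anxa5, which binds phosphatidylserine and is used to stain dying cells, read 11.01, 11.71, 10.36 and 10.78 in Amacr-/- replicates 1 to 4, against 10.52, 10.48, 10.67 and 10.97 in wild-type replicates 1 to 4. Knockout replicates 1 and 2 were above all wild-type arrays, and replicate 3 was below them all. The log2 difference was 0.30 (SE 0.25) with all arrays and 0.06 without knockout replicate 2.

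Anxa1, a glucocorticoid-induced protein that damps inflammation through formyl peptide receptors, read 6.92, 7.70, 6.81 and 6.91 in Amacr-/- replicates 1 to 4, against 7.03, 6.97, 6.92 and 7.06 in wild-type replicates 1 to 4. Only knockout replicate 2 rose clear of the wild-type range, and the other knockout arrays were at or just under its lower edge. The log2 difference was 0.09 (SE 0.18), and it was -0.11 without that array.

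Anxa3, another calcium-dependent phospholipid-binding protein, read 7.52, 8.01, 6.88 and 7.04 in Amacr-/- replicates 1 to 4, against 7.46, 7.50, 7.33 and 7.66 in wild-type replicates 1 to 4. Knockout replicate 2 lay above the wild-type arrays and replicates 3 and 4 lay below them, with a mean difference of -0.13 (SE 0.22). That difference was -0.34 without knockout replicate 2 and 0.04 without knockout replicate 3.

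Anxa6, an annexin with a doubled core that binds late endosomes and a Ras GTPase-activating protein, also had knockout arrays on both sides of wild type. It read 9.64, 9.69, 9.02 and 9.24 in Amacr-/- replicates 1 to 4, against 9.49, 9.31, 9.43 and 9.39 in wild-type replicates 1 to 4. Replicates 1 and 2 of the knockout were above all wild-type arrays and replicates 3 and 4 below all of them, with a mean difference of -0.01 (SE 0.14). Leaving out 1 array at a time moved it between -0.10 and 0.12.

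S100a6, calcyclin, a gene of dividing and mesenchymal cells, read 5.59, 6.33, 5.01 and 5.99 in Amacr-/- replicates 1 to 4, against 5.53, 5.52, 5.21 and 6.15 in wild-type replicates 1 to 4. The genotypes overlapped and the difference was 0.13 (SE 0.29). Leaving out knockout replicate 2, 3 or 4 gave -0.07, 0.37 or 0.04, and leaving out wild-type replicate 3 or 4 gave 0.00 or 0.31. Here the wild-type arrays also varied, replicate 4 being the highest of them.

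**Figure D1:**
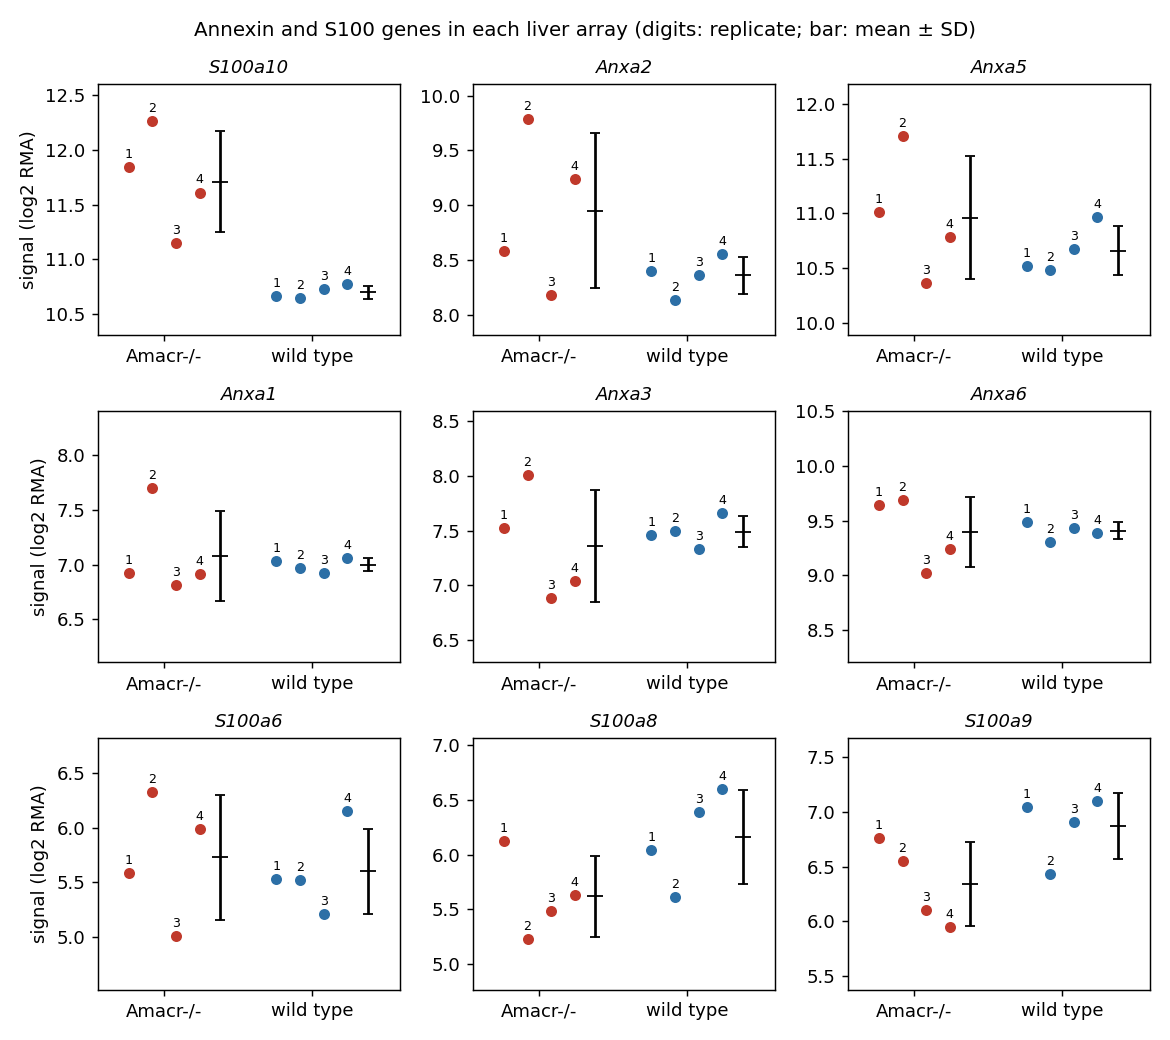
Log2 RMA signal (y axis) of the 9 annexin and S100 genes in the 4 Amacr-/- livers (red, left) and the 4 wild-type livers (blue, right), with digits for the replicate and bars for mean ± SD. Every panel spans the same height on the log2 scale. The knockout points of S100a10 all lie above its wild-type points, Anxa2 is far above the wild-type range in knockout replicates 2 and 4, and S100a8 and S100a9 have lower means in the knockout.

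The calprotectin genes went the other way. S100a8 read 6.12, 5.23, 5.48 and 5.63 in Amacr-/- replicates 1 to 4, against 6.04, 5.61, 6.39 and 6.60 in wild-type replicates 1 to 4. S100a9 read 6.76, 6.55, 6.10 and 5.95 in Amacr-/- replicates 1 to 4, against 7.04, 6.43, 6.91 and 7.10 in wild-type replicates 1 to 4. For both genes the genotypes overlapped. S100a8 in knockout replicate 1 was above wild-type replicates 1 and 2, and in knockout replicate 4 it was just above wild-type replicate 2. For S100a9 the overlap came from wild-type replicate 2, which lay under knockout replicates 1 and 2.

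The log2 difference was -0.54 (SE 0.24) for S100a8, or 1.46-fold lower in knockout, and -0.53 (SE 0.20) for S100a9, or 1.44-fold lower. With both knockout replicate 2 and wild-type replicate 4 left out these values were -0.27 for S100a8 and -0.52 for S100a9. In RNA of whole liver, fewer cells of a type and less RNA per cell cannot be told apart.

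S100a8 and S100a9 are neighbours on chromosome 3, with 0 other protein-coding genes between them in RefSeq's order (GRCm38.p6), and are shown because both had lower means in the knockout. The windows are those of 250 bases before to 50 after the RefSeq start, S100a8 on the plus strand at chr3:90668821-90669120 and S100a9 on the minus strand at chr3:90695672-90695971, each written 5′ to 3′ with TATA box matches in capitals.
S100a8: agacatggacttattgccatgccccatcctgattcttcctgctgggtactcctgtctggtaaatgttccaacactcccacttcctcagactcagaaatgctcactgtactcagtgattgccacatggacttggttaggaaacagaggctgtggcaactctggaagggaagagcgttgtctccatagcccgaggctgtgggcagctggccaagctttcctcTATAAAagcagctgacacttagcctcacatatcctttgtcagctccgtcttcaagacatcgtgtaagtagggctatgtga
S100a9: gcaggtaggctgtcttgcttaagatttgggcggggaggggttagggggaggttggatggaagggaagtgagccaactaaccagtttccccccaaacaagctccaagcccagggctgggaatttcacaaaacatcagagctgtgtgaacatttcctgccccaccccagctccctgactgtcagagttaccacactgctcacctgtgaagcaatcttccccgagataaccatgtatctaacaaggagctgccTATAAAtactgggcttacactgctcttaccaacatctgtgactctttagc

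In S100a8 the TATA box match begins 30 bases before the RefSeq start. In S100a9 it begins at the start itself as RefSeq annotates it. Neither window holds an AP-1 match.

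Markers of the cells that make calprotectin were measured beside it. Of 15 neutrophil markers 13 were measured and 0 passed the limma threshold. Only 1, Ngp, had an unadjusted p under 0.05, beside 11.3% of all probe sets. Ngp was higher in the knockout by 0.32 (limma adjusted p = 0.337). Of the 13 markers 7 had higher and 6 had lower means in the knockout. Their median deviation from the wild-type mean was 0.06, -0.13, 0.11 and 0.07 in the 4 knockout arrays in order of replicate, against -0.08 to 0.12 in wild type. The summed signal of the 13 on the linear scale ranged from 1152 to 2515 in knockout arrays and from 1099 to 1560 in wild-type arrays. Its highest value belongs to knockout replicate 2, where Lcn2, a siderophore-binding protein of neutrophils that hepatocytes also make in inflammation, read 10.63 against 6.93 to 8.50 in the other knockout arrays. Mpo, the peroxidase of neutrophil granules, differed by 0.06 (limma adjusted p = 0.882) and Csf3r, the receptor for granulocyte growth factor, by -0.07 (limma adjusted p = 0.840). Mpo lay under the array medians of 6.62 to 6.66, averaging 5.43 in knockout and 5.37 in wild type. Csf3r lay above those medians, at 8.05 in knockout and 8.13 in wild type.

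All 11 Kupffer cell markers had lower means in the knockout, with 0 of 11 past the limma threshold. An unadjusted p under 0.05 was found for 1 of the 11, beside 11.3% of all probe sets. It was Marco, which differed by -1.13 (limma adjusted p = 0.425). The median of the 11 markers was 0.15, -0.07, -0.66 and -1.08 in knockout replicates 1 to 4. In wild-type replicates 1 to 4 it was -0.01, -0.49, 0.05 and 0.43. The low arrays of that list, knockout replicates 3 and 4 and wild-type replicate 2, were also low for S100a9, while for S100a8 the lowest array was knockout replicate 2. Summed on the linear scale, the 11 ranged from 4249 to 10133 in knockout arrays and from 6589 to 12170 in wild-type arrays. Of 10 monocyte and macrophage markers 8 were measured and 0 passed, and 5 had higher and 3 lower means in the knockout. At an unadjusted p under 0.05 there was 1 of the 8, beside 11.3% of all probe sets. This was Itgam, which differed by -0.29 (limma adjusted p = 0.365). All knockout values of Itgam lay under its wild-type values, as in 3.25% of all probe sets. Sums of the 8 markers ran from 895 to 1843 in knockout and from 1040 to 2534 in wild type. The table has no detection calls, so no marker can be called absent, and the part of these cells in the calprotectin values was not tested.

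Across the 9 members, 5 means were higher and 4 lower in the knockout, and the median log2 difference was 0.09, against 0.02 over all probe sets. Past the limma threshold of an adjusted p under 0.05 there were 0 of the 9 members, beside 0.115% of all probe sets (19 of 16492). At an unadjusted p under 0.05 there were 3 of the 9, beside 11.3% of all probe sets. Since the members were chosen with this contrast known, these counts are a description.

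Most of the 9 members shared their highest and lowest knockout array. In 7, all but S100a8 and S100a9, replicate 2 was the highest knockout array and replicate 3 the lowest. Of all probe sets 11.8% had these same extremes. In the same 7 genes replicate 2 was the highest of all 8 arrays, as in 16.7% of all probe sets. The median deviation of these 7 genes from their wild-type means was 0.22, 0.73, -0.30 and 0.12 in Amacr-/- replicates 1 to 4, against -0.08 to 0.17 in wild-type arrays. The wild-type arrays had a common extreme too, replicate 4 being the highest of them for 8 of the 9 members, all but Anxa6. For that pattern the share over all probe sets was not counted.

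Most stellate cell and fibroblast markers had the same highest and lowest knockout arrays. Taken over the list, the median deviation was -0.14, 0.61, -0.26 and 0.27 in Amacr-/- replicates 1 to 4, against -0.10 to 0.15 among wild-type arrays, and the summed linear signal of the 12 genes ranged from 4300 to 8142 in knockout and from 4840 to 5331 in wild type. Of the 12, knockout replicate 2 was the highest knockout array for 9, as in 27.4% of all probe sets. Replicate 3 was the lowest for 10, as in 20.1% of all probe sets. Among the exceptions, Acta2 and Tagln were highest in replicate 4 and Reln was lowest there. Des went the other way, at 6.85 in replicate 2, its lowest, and 7.19 in replicate 3, its highest. Col3a1, a fibrillar collagen, had the widest knockout spread of the list. It read 9.03, 10.85, 8.07 and 9.44 in Amacr-/- replicates 1 to 4, against 8.75 to 9.86 among wild-type arrays. Of 11 cholangiocyte markers 8 were measured, with a median of 0.25 in knockout replicate 2 and sums from 307 to 558 in knockout and from 324 to 414 in wild type. In both lists 0 genes passed the limma threshold and 0 had an unadjusted p under 0.05, and their part in the annexin values was not tested.

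**Figure D2:**
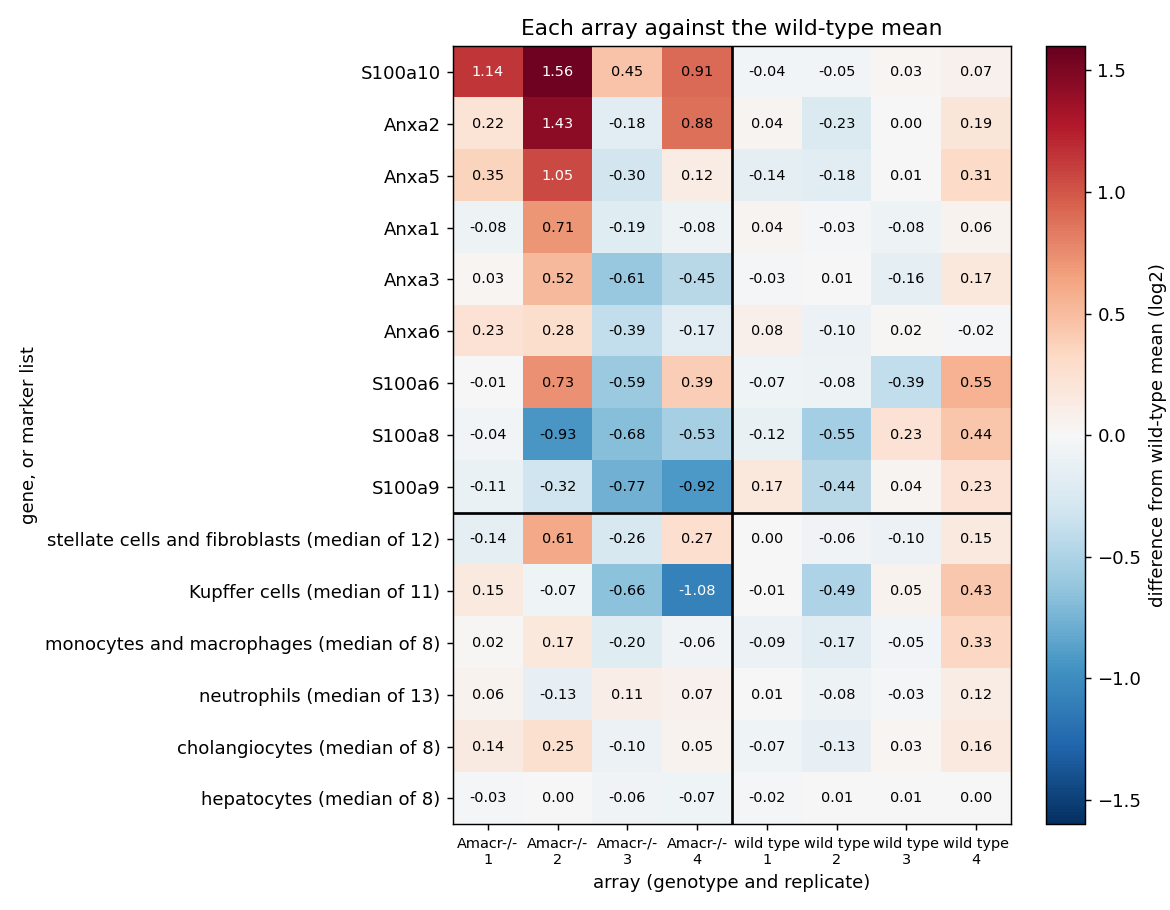
Difference from the wild-type mean (log2, colour and number) for each member in each array, with the medians of 6 marker lists under the horizontal line. Columns are the 4 Amacr-/- arrays, then the 4 wild-type arrays. The annexins, S100a6 and S100a10 are highest in knockout replicate 2, and S100a9 and the Kupffer cell list are lowest in knockout replicate 4.

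The spread between knockout arrays was larger than that between wild-type arrays for 8 of the 9 members, S100a8 being the exception. The median SD of the members was 0.46 over Amacr-/- arrays and 0.17 over wild-type arrays. Over all probe sets the median SD was 0.14 over Amacr-/- arrays and 0.11 over wild-type arrays, and 66.7% had the larger SD in the knockout. Ranked by knockout SD, the members lay between percentile 89.5 (Anxa6) and percentile 98.2 (Anxa2) of all probe sets. Wide spread between knockout arrays was not particular to the members. The median SD in knockout and wild type was 0.61 and 0.38 for Kupffer cell markers and 0.44 and 0.31 for stellate cell and fibroblast markers. It was 0.24 and 0.10 for the other annexins, 0.17 and 0.14 for the other S100 genes, and 0.16 and 0.19 for neutrophil markers.

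The contrast was greatest for S100a10, with an SD of 0.46 in knockout and 0.06 in wild type, and for Anxa1, with 0.41 in knockout and 0.06 in wild type. Much of the spread of Anxa1 belonged to 1 array, since without knockout replicate 2 its SD was 0.06. For S100a10 it was 0.35 and for Anxa2 0.54 without that array, still above the wild-type SDs of 0.06 and 0.17. Without it the median knockout SD of the members was 0.33, against 0.11 over all probe sets. Of the 9 members 7 kept a larger SD than in wild type, all but S100a8 and Anxa1. That count sets the remaining knockout arrays against all wild-type arrays, and the same share over all probe sets was not counted.

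**Figure D3:**
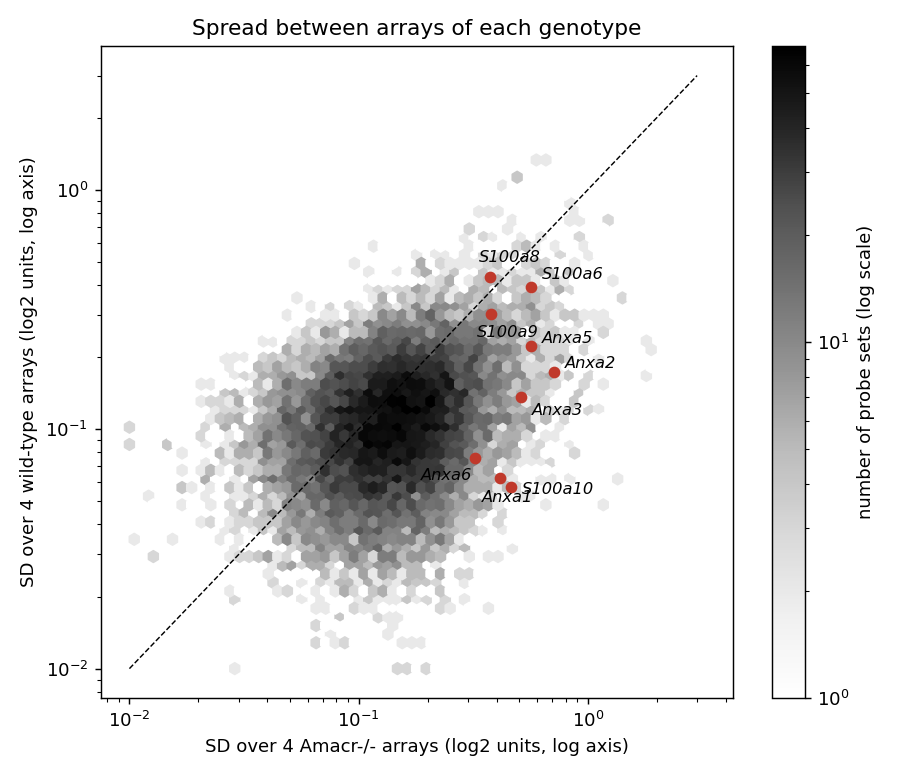
SD over the 4 Amacr-/- arrays (x axis) against SD over the 4 wild-type arrays (y axis), both in log2 units on log axes, for all probe sets (grey, shade for their number) and the 9 members (red). SDs under 0.01 are drawn at 0.01, and the dashed line marks equal spread. All members but S100a8 lie below the line, with S100a10 and Anxa1 farthest from it.

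The rest of both families was taken by symbol whatever its values, although earlier results of these arrays were known, and is given with the limma test. Of 19 annexin and S100 genes outside the members 16 were measured and 0 passed at a limma adjusted p under 0.05. An unadjusted p under 0.05 was found for 3 of the 16, S100a13, Anxa13 and S100b, beside 11.3% of all probe sets.

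Anxa13, an annexin of gut and kidney epithelium, had the largest difference among them. It read 6.16, 9.33, 5.60 and 5.52 in Amacr-/- replicates 1 to 4, against 4.79, 4.64, 4.89 and 5.18 in wild-type replicates 1 to 4. Every knockout array lay above every wild-type array, as in 3.42% of all probe sets, and replicate 2 lay far above the other knockout arrays. The log2 difference was 1.78 (SE 0.74, limma adjusted p = 0.416), and 0.89 without knockout replicate 2 (adjusted p = 0.0987).

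S100a13, which takes part in the export of fibroblast growth factor without a signal peptide, had all its knockout values under its wild-type values, as 3.25% of all probe sets did. It read 8.54, 8.45, 8.42 and 8.49 in Amacr-/- replicates 1 to 4, against 8.99, 8.74, 8.81 and 8.88 in wild-type replicates 1 to 4. In contrast to the members, its knockout arrays were close together. The log2 difference was -0.38 (SE 0.07, limma adjusted p = 0.102).

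S100b, best known from glial cells, averaged 5.28 ± 0.20 in knockout and 4.95 ± 0.15 in wild type (SD, n = 4 each), a log2 difference of 0.33 (limma adjusted p = 0.336). S100a7l2 differed by 0.16 (limma adjusted p = 0.681), Anxa9 by 0.10 (0.850) and Anxa10 by -0.09 (0.833). S100a1, S100a16 and Anxa7 each differed by 0.01. The median difference was 0.01 for the 6 other annexins and 0.02 for the 10 other S100 genes.

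The S100 genes of chromosome 3 did not share a direction. Of 12 measured there, 8 had higher and 4 had lower means in the knockout. S100a10 alone had all knockout values above the wild-type range, and S100a13 alone had all of them below it.

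Genes that work with the members were read from lists of binding partners and receptors. Of 24 such genes 20 were measured and 0 passed the limma threshold. An unadjusted p under 0.05 was found for 3 of the 20, Fpr2, Cd36 and Bsg, beside 11.3% of all probe sets. In the plasminogen system, in which S100A10 serves as a cell surface receptor, Plaur, the urokinase receptor, differed by 0.18 (limma adjusted p = 0.608), Plau, urokinase itself, by 0.11 (0.624) and Serpinb2, an inhibitor of urokinase, by 0.10 (0.696). Plg, plasminogen, which hepatocytes secrete, differed by -0.05 (limma adjusted p = 0.795). Ahnak, a large scaffold that the annexin A2 and S100A10 complex binds, read 7.57 in knockout replicate 2 against 6.90 to 7.16 in the other knockout arrays, and its mean differed by 0.08 (limma adjusted p = 0.856).

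Fpr2, a receptor for annexin A1, averaged 6.47 ± 0.31 in knockout and 7.22 ± 0.69 in wild type (SD, n = 4 each). Its log2 difference of -0.75 (SE 0.31, limma adjusted p = 0.412) did not pass, and the genotypes overlapped. The highest wild-type value, 8.17, belonged to replicate 4, the array with the highest S100a8 and S100a9, and without it the difference was -0.44.

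Among receptors of S100A8 and S100A9 was Cd36, a scavenger receptor and fatty acid transporter that is also a PPAR-alpha target. Like 3.42% of all probe sets, it was above its wild-type range in all knockout arrays. It read 10.24, 10.53, 9.94 and 9.67 in Amacr-/- replicates 1 to 4, against 9.44, 8.36, 8.60 and 8.22 in wild-type replicates 1 to 4, a log2 difference of 1.44 (limma adjusted p = 0.104). Cd14, a co-receptor of Tlr4, differed by 0.42 (limma adjusted p = 0.595) and was highest in knockout replicate 2, at 7.72, without which the difference was 0.15. Bsg differed by 0.16 (limma adjusted p = 0.425), and Tlr4, the toll-like receptor that calprotectin binds, by -0.08 (limma adjusted p = 0.678).

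Of the remaining partners, Cacybp, which binds S100A6, differed by -0.25 (limma adjusted p = 0.534), Dysf, the membrane repair protein dysferlin, by 0.12 (0.804) and Tgm2, a transglutaminase, by 0.10 (0.869).

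**Figure D4:**
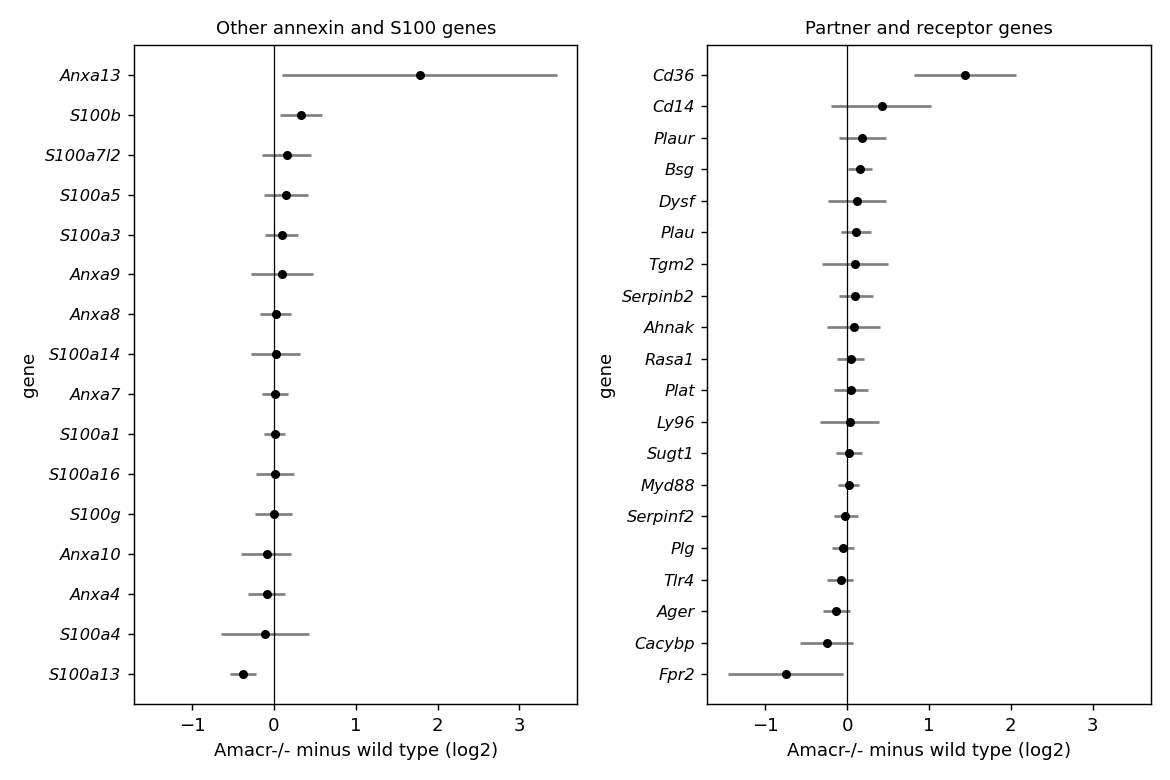
Log2 difference, Amacr-/- minus wild type (x axis), for the 16 annexin and S100 genes outside the members (left) and the 20 partner and receptor genes (right), with 95% intervals from the limma fit. Points right of the line are higher in the knockout. Anxa13 and Cd36 lie farthest to the right and Fpr2 farthest to the left, and 0 of these genes passed after adjustment.

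Genes whose deviations from the genotype means ran most like those of Anxa2 over the 8 arrays were Dpt (r = 0.975), Emp1 (0.973), Serpinh1 (0.973), Gsn (0.971) and Col5a1 (0.966). Without knockout replicate 2, over 7 arrays, these coefficients were 0.951, 0.940, 0.935, 0.929 and 0.946 in the same order. Dpt and Col5a1 encode proteins of the extracellular matrix, Serpinh1 a collagen chaperone, Gsn the actin-severing protein gelsolin and Emp1 an epithelial membrane protein. S100a10 was not among these genes. For S100a8 the nearest were Adgrb2 (0.973), Rnf122 (0.973), Tlnrd1 (0.969), Ano6 (0.968) and Ston2 (0.967), and S100a9 was not among them. Each of the 10 is the nearest of many probe sets over few arrays, so the coefficients describe these arrays and carry no test.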

How the data were processed

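Each probe set had 1 log2 value per array in the deposited table. The authors made them with RMA, per the submitters' processing notes, which give no version. RMA corrects background, normalizes between arrays and summarises probes, so a shift common to all genes would not be seen. Scanner, software, filters and genome build are not given in the sources used here. Values have 2 decimals, and 0 pairs of arrays were identical.

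Of 16556 probe sets 64 array controls were left out. GEO's platform annotation named 1 gene for 15270 of the remaining 16492 and none for 1222, and all 15270 matched RefSeq (GRCm38.p6) by Entrez number.

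The genotypes were tested against each other in limma 3.58.1 (R 4.3.3, lmFit and eBayes with no trend, two-sided, genotype only, all 8 arrays), with Benjamini-Hochberg adjustment over the 16492 and a threshold of 0.05. Fold changes are of signals. Precision is set by 4 arrays a group, with a median SE of 0.09. The fit was tested on simulated data. Members, gene lists and marker lists were chosen with earlier results of these data known. Named genes were Amacr, the members, per list those past the threshold and the 3 largest differences, and 5 nearest genes each for Anxa2 and S100a8. Genes named beyond that rule were chosen after seeing their values. Among them were S100a1, S100a16, Anxa7, Plg, Ahnak, Tlr4, Lcn2, Mpo, Csf3r, Ngp, Marco, Itgam, Col3a1, Acta2, Tagln, Des and Reln. Alternatives were an intensity trend, array weights, the replicate block, median centring, a filter on low signals, controls kept, and arrays left out.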

Additional observations from a re-analysis of the deposited data

Results flagged for a closer look

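Within each genotype, the gap between the highest or lowest array and its nearest neighbour was divided by the range of the 4 arrays. Of 52 such groups of named genes 4 lay above Dixon's 95% critical value of 0.829, as a description. Chance flags about 1 in 20 groups, a rate that does not hold for these genes, which were chosen with values known or named for large differences. Anxa1 in Amacr-/- had a ratio of 0.876, with replicate 2 at 7.70 against 6.81 to 6.92 in the other knockout arrays. Anxa13 in Amacr-/- had a ratio of 0.832, with replicate 2 at 9.33 against 5.52 to 6.16 in the other knockout arrays. Amacr in wild type had a ratio of 0.921, with replicate 4 at 11.68 against 12.03 to 12.06. Plau in wild type had a ratio of 0.857, with replicate 1 at 4.87 against 4.73 to 4.75.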

How the results depend on the processing

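The count of 19 probe sets past the threshold was 75 with array quality weights, 53 among probe sets at or above the table's median signal, 1 with the replicate block, 39 with both knockout replicate 2 and wild-type replicate 4 left out, and 2 to 39 when 1 array was left out. The cause was not tested. Same-numbered arrays were not taken as pairs, since the labels do not say that replicate numbers pair animals. Correlations of the deviations of same-numbered arrays lay between -0.115 and 0.0915, which cannot settle whether they were paired. With array weights 1 member passed, S100a10, against 0 in the 14 other alternatives. Among family genes outside the members and among partners 0 passed in all 15 alternatives. The median difference of the members ranged from -0.10 to 0.20. The ratio of the members' median SDs, knockout over wild type, was 2.66, and 1.93 to 4.62 when 1 array was left out, with 4.62 reached without wild-type replicate 2 or 4. S100a10, Anxa2, Anxa5, Anxa13 and Cd36 stayed higher and S100a8, S100a9 and S100a13 lower in the knockout in every alternative that held them. Probe sets below the median signal, among them S100a6, S100a8, S100a9 and Anxa13, have no value under the filter. Leaving out 1 array turned the sign of several small differences. Among members S100a6 ranged from -0.07 to 0.37, Anxa1 from -0.11 to 0.18, Anxa3 from -0.34 to 0.04 and Anxa6 from -0.10 to 0.12. Among the other named genes Anxa9 ranged from -0.05 to 0.20, Anxa10 from -0.20 to 0.03, Tgm2 from -0.07 to 0.24 and Dysf from -0.01 to 0.25. With those 2 arrays left out Anxa10 was 0.02 and Tgm2 -0.02.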
